A study of Mus musculus with 16 samples.

Results

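The genes Ppara, Cpt1a, Ehhadh, Acot1, Pdk4, Plin2, Angptl4 and Vnn1, which belong to the liver's response to fasting and fatty acids, were followed in RNA-sequencing libraries of mouse liver. They were taken from the processed table by gene symbol and make up 8 of its 18578 rows. The set was chosen with earlier results of these data known. All 8 passed the filter on low values and belong to the 15781 genes tested. Libraries came from livers of mice labelled male and 20 days old, with 4 libraries in each of 4 genotypes. In Trsp fl/fl livers both alleles of the selenocysteine tRNA gene are floxed but intact. In Trsp fl/fl::AlbCre livers the albumin-driven Cre recombinase deletes that gene in hepatocytes, which then cannot make selenoproteins. Keap1 C226S&C613S homo::Trsp fl/fl livers carry, on both Keap1 alleles, substitutions of 2 cysteines with which KEAP1, the repressor of the transcription factor NRF2, senses oxidants, and their Trsp gene is floxed and intact. Keap1 C226S&C613S homo::Trsp fl/fl::AlbCre livers combine those substitutions with the deletion in hepatocytes, so that the floxed Trsp alleles are common to all 4 genotypes. The latter 2 genotypes are called Keap1 substitution livers and compound mutant livers from here on. The comparisons ask whether selenoprotein loss alters gene expression and whether that depends on the 2 cysteines.

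PPAR-alpha is a nuclear receptor that binds fatty acids and, paired with RXR, switches on genes for fatty acid breakdown. In fasting or suckling, fatty acids reach the liver from adipose tissue or milk, are split in mitochondria and peroxisomes, and part of the resulting acetyl-CoA is released as ketone bodies. Of the genes followed, Ppara encodes the receptor itself, Cpt1a the enzyme that commits long-chain fatty acids to mitochondrial oxidation, Ehhadh the bifunctional enzyme of peroxisomal beta-oxidation and Acot1 a cytosolic acyl-CoA thioesterase. Pdk4 encodes a kinase that shuts off pyruvate dehydrogenase, Plin2 a coat protein of lipid droplets, Angptl4 a secreted inhibitor of lipoprotein lipase and Vnn1 a pantetheinase that returns cysteamine and pantothenate from coenzyme A breakdown.

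The deposited values were log2(normalized count + 4), where the normalized count is the reads of a gene divided by a size factor of the library. Libraries held between 11386721 and 19164140 recovered reads. The labels do not state that the libraries of a genotype came from separate animals, so p-values measure the spread between these libraries. Trsp itself was not analysed here. The selenoprotein mRNA Gpx1 lay between 8692 and 18758 normalized counts in the 8 libraries without AlbCre and between 2759 and 4060 in the 8 with it. Hepatocyte markers were high in every library, from 826100 to 2092000 summed normalized counts over 5 markers, the lowest sum being that of compound mutant replicate 1. That library also went against its label, with 28799 reads on Xist against 22 to 50 elsewhere and 2 reads on 4 Y-linked genes against 1830 to 3066 elsewhere. Its 5 adipocyte markers summed to 979 and its 5 erythroid markers to 63880 normalized counts, each the highest of the 16 libraries. Trsp fl/fl replicate 3 held 420 normalized counts on the adipocyte markers, against 1.07 to 17.4 in the remaining 14, and 19330 on 4 skeletal muscle markers, against 8.60 to 30.2 in the other 15. Kupffer cell markers summed to 2877 to 12180, stellate cell markers to 15090 to 30520 and exocrine pancreas markers to 37.6 to 109 normalized counts. Erythroid markers summed to 21280 to 42300 in Trsp fl/fl, 9920 to 22510 in Trsp fl/fl::AlbCre, 8667 to 16990 in Keap1 substitution and 10040 to 63880 in compound mutant livers. Values without compound mutant replicate 1 or without Trsp fl/fl replicate 3 are given beside some of the results of the 8 genes. A result without such a value may have moved as well. In whole liver, fewer cells of a type and less RNA per cell cannot be told apart.

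Per kilobase of transcript, the mean normalized count over the 16 libraries was highest for Cpt1a at 1595, followed by Ehhadh at 1355, Plin2 at 1216 and Ppara at 724. Angptl4 and Pdk4 were close to each other at 145 and 144, Vnn1 stood at 84.0 and Acot1 at 26.6. The libraries of Cpt1a, Ehhadh and Plin2 overlapped, with ranges of 889 to 2172, 540 to 2414 and 751 to 1695, so that their order was not fixed beyond the spread. Those of Angptl4, from 55.5 to 285, and Pdk4, from 53.4 to 362, also overlapped almost completely. Ppara, from 383 to 991, lay above every library of Angptl4, Pdk4, Vnn1 and Acot1.

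The promoters of 4 of these genes are shown because Ppara and Cpt1a varied together between libraries, Plin2 had the lowest correlation with Ppara and Ehhadh was the gene whose genotype groups separated. RefSeq sequence of the 250 bases before the annotated start was available for 6 genes, Ppara, Cpt1a, Ehhadh, Acot1, Pdk4 and Plin2, in build GRCm38.p6. The positions are chr15:85735526-85735775 (plus strand) for Ppara, chr19:3323051-3323300 (plus strand) for Cpt1a, chr16:21787835-21788084 (minus strand) for Ehhadh and chr4:86670060-86670309 (minus strand) for Plin2. Each sequence runs 5′ to 3′ on the gene's strand and capitals mark the motif AGGTCA, or TGACCT where it lies on the opposite strand.
Ppara: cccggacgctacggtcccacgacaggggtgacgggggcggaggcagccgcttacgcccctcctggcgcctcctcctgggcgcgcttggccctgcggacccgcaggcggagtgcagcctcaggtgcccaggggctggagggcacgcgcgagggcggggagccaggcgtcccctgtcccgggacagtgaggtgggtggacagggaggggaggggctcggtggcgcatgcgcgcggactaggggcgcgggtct
Cpt1a: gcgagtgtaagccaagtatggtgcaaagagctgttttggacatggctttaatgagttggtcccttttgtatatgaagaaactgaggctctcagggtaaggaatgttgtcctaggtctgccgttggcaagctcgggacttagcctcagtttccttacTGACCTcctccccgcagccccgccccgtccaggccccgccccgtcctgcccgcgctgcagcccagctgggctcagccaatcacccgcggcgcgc
Ehhadh: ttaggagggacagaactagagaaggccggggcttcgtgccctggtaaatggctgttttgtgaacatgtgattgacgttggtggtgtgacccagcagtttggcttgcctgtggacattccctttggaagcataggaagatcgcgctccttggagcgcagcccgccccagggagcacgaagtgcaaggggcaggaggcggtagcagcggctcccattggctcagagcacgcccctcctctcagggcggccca
Plin2: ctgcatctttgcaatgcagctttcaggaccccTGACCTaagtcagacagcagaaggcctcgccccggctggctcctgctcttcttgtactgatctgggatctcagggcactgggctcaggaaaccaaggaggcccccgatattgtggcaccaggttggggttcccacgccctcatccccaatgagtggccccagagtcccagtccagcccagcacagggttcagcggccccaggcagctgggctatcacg

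AGGTCA is an element that many nuclear receptors read, though not all, and PPAR-alpha with RXR reads it as a direct repeat with 1 base between the copies. On either strand, AGGTCA was found in the Cpt1a window, its first base 94 bases before the start, and in the Plin2 window, 218 bases before it. It was found in 14% of all 32851 promoter windows of this length. That full repeat, with any base between its copies, was present in 0.0335% of windows and was found in none of the 6. The same held for CACGTG, the E-box that clock proteins bind, present in 6.02%, and for TTATGTAA or TTACGTAA, the D-box sequences, present in 0.931%.

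Selenoprotein loss with normal KEAP1 was examined first, as Trsp fl/fl::AlbCre minus Trsp fl/fl. None of the 8 genes was called, a call needing a limma adjusted p under 0.01 and a log2 fold change beyond 1 in either direction, against 0.215% of all genes. Ehhadh alone had an unadjusted p under 0.05, 1 of 8 genes where 11% of all genes did, and limma voom on the recovered reads likewise called 0. All 8 log2 fold changes were above 0, with a median of 0.35 against -0.01 over all genes. The 8 values come from the same 8 livers, so their signs are not independent of each other. Without Trsp fl/fl replicate 3, 7 of the 8 were above 0 and Plin2 was at -0.04. Erythroid markers were lower in these knockout livers than in the controls apart from 1 overlapping pair of libraries, and their part in the differences was not tested.

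Ehhadh was the gene whose libraries separated. Its normalized counts were 3113, 3834, 3827 and 3963 in Trsp fl/fl livers and 7196, 4925, 6516 and 6221 in Trsp fl/fl::AlbCre livers. Every knockout library lay above every control library, which held for 6.01% of all genes in either direction. On the log2 scale the means were 11.84 ± 0.16 and 12.59 ± 0.23 (SD, n = 4 each), a difference of 0.75 with a standard error of 0.28, a 95% interval of 0.16 to 1.34 and a limma adjusted p of 0.31. Leaving out 1 library at a time gave 0.67 to 0.85, none of them called.

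The transcription factor and its transport enzyme showed no such separation. Ppara was measured at 1307, 1698, 3370 and 3223 normalized counts in Trsp fl/fl livers and at 3281, 3255, 1815 and 1818 in Trsp fl/fl::AlbCre livers. Each group held a pair of high and a pair of low libraries and the groups overlapped, with a log2 difference of 0.14 and a 95% interval of -0.52 to 0.80. Without Trsp fl/fl replicate 3, the library with muscle and adipocyte reads, it was 0.34 (limma adjusted p = 0.72). Cpt1a was at 4045, 5472, 8744 and 7165 in the controls and at 7397, 7798, 5569 and 6813 in the knockouts. The knockout libraries lay inside the range of the controls, with a log2 difference of 0.16 (95% interval -0.34 to 0.67). The highest control was again replicate 3, and without it the difference was 0.34 (limma adjusted p = 0.63), with 2 knockout libraries above the remaining controls.

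**Figure D1:**
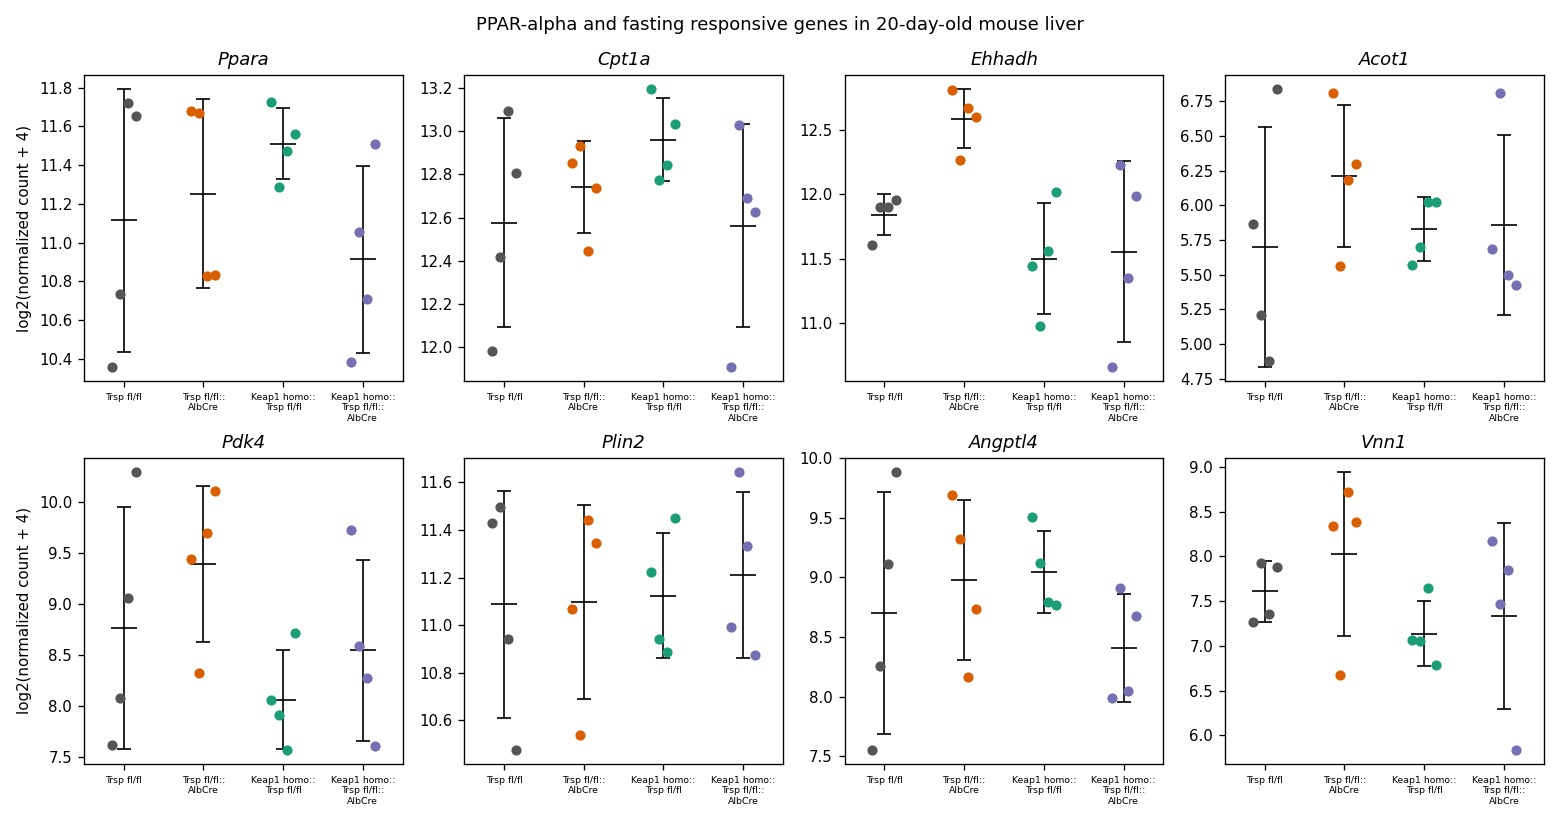
Log2(normalized count + 4) of the 8 genes (vertical axes, scaled per gene) in the 4 genotypes, where Keap1 homo stands for Keap1 C226S&C613S homo. Points are libraries, long ticks means and bars SD (n = 4). Ehhadh in Trsp fl/fl::AlbCre, from 12.27 to 12.81, lies above all libraries of Trsp fl/fl and of compound mutant livers, while the groups of the other 7 genes overlap.

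Pdk4, the pyruvate dehydrogenase kinase, had 193, 266, 531 and 1260 normalized counts in Trsp fl/fl livers and 693, 317, 828 and 1105 in Trsp fl/fl::AlbCre livers. Its log2 difference was 0.63, but a single control library, replicate 4, was above all knockout libraries, and the interval ran from -0.52 to 1.78. Vnn1 had 150, 239, 159 and 232 against 320, 98.4, 418 and 331 normalized counts. In Vnn1, 3 of the knockout libraries were above all controls and replicate 2 was below all of them, giving 0.42 (95% interval -0.56 to 1.41).

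Angptl4 was at 184, 302, 549 and 942 normalized counts in Trsp fl/fl and at 824, 636, 283 and 423 in Trsp fl/fl::AlbCre livers. The knockout libraries again fell within the control range, and the log2 difference was 0.28 (95% interval -0.62 to 1.18). Plin2 had 2758, 2888, 1965 and 1418 against 2140, 1481, 2775 and 2601, a log2 difference of 0.01 (95% interval -0.51 to 0.53). Both of its groups spanned nearly the same levels.

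Acot1 was the weakest of the genes, at 54.2, 33.0, 25.3 and 111 normalized counts in Trsp fl/fl and 108, 43.3, 68.6 and 74.8 in Trsp fl/fl::AlbCre livers. The log2 difference was 0.52 (95% interval -0.32 to 1.36) and the groups overlapped, and without Trsp fl/fl replicate 3 it was 0.24. Of the stretches of 31 bases in its transcripts, 38.7% also occurred in transcripts of other genes, 28.9% in those of its neighbour Acot2, another acyl-CoA thioesterase. Reads of the 2 genes could thus be divided between them by the counting, and with both summed the log2 difference was 0.03. Plin2 shared 7.56% of its stretches with Gm12551, and the other 6 genes at most 1.59% with any other.

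The same deletion on the background of the Keap1 substitutions was examined as compound mutant minus Keap1 substitution livers. None of the 8 genes was called by limma or limma voom, against 0.171% of all genes, none had an unadjusted p under 0.05, against 13.6%, and none had groups that did not overlap, against 7.69%. The signs were mixed, 5 higher and 3 lower, with a median of 0.04. Without compound mutant replicate 1, 4 were higher and 4 lower.

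Ppara had 3383, 2494, 2838 and 3015 normalized counts with Trsp intact and 1334, 2124, 1667 and 2909 after its deletion. Of the deleted libraries, 3 were below all intact ones and replicate 4 was among them, for a log2 difference of -0.60 (standard error 0.31, 95% interval -1.26 to 0.06, limma adjusted p = 0.43). Without replicate 1 of the deleted group it was -0.42. Angptl4 went from 721, 551, 439 and 433 to 251, 476, 261 and 405, a log2 difference of -0.64 (95% interval -1.54 to 0.26). Its deleted libraries were low as a group but replicate 2 overlapped the intact ones, and without replicate 1 the difference was -0.50.

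Cpt1a was at 9378, 6994, 7342 and 8364 normalized counts with Trsp intact and at 3838, 8341, 6612 and 6318 after deletion. The low value of replicate 1 set much of its log2 difference of -0.40 (95% interval -0.90 to 0.11), which was -0.18 without that library. Ehhadh had 2783, 2010, 3021 and 4150 against 1610, 4785, 2611 and 4058. Its groups covered each other, the difference was 0.05 (95% interval -0.54 to 0.65), and without replicate 1 it was 0.35.

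Pdk4 was measured at 263, 237, 186 and 419 normalized counts with Trsp intact and at 847, 381, 306 and 191 after deletion, a log2 difference of 0.48 (95% interval -0.67 to 1.64). Replicate 1 was again the extreme library, here the highest, and the difference was 0.09 without it. Vnn1 was at 130, 128, 196 and 106 against 285, 173, 226.3 and 53.0, a difference of 0.20 (95% interval -0.79 to 1.18). Its lowest and its highest library of this comparison were both in the deleted group, and without replicate 1 the difference was -0.09.

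Plin2 and Acot1 hardly differed in mean. Plin2 had 2384, 1961, 1888 and 2791 normalized counts with Trsp intact and 2033, 3201, 2574 and 1871 after deletion (log2 difference 0.09, 95% interval -0.43 to 0.61). Acot1 had 43.5, 47.9, 61.2 and 61.2 against 47.6, 108, 41.2 and 39.0 (0.03, 95% interval -0.81 to 0.87). In Acot1 a single deleted library, replicate 2, was high. Without replicate 1 the differences were 0.16 for Plin2 and 0.08 for Acot1.

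**Figure D2:**
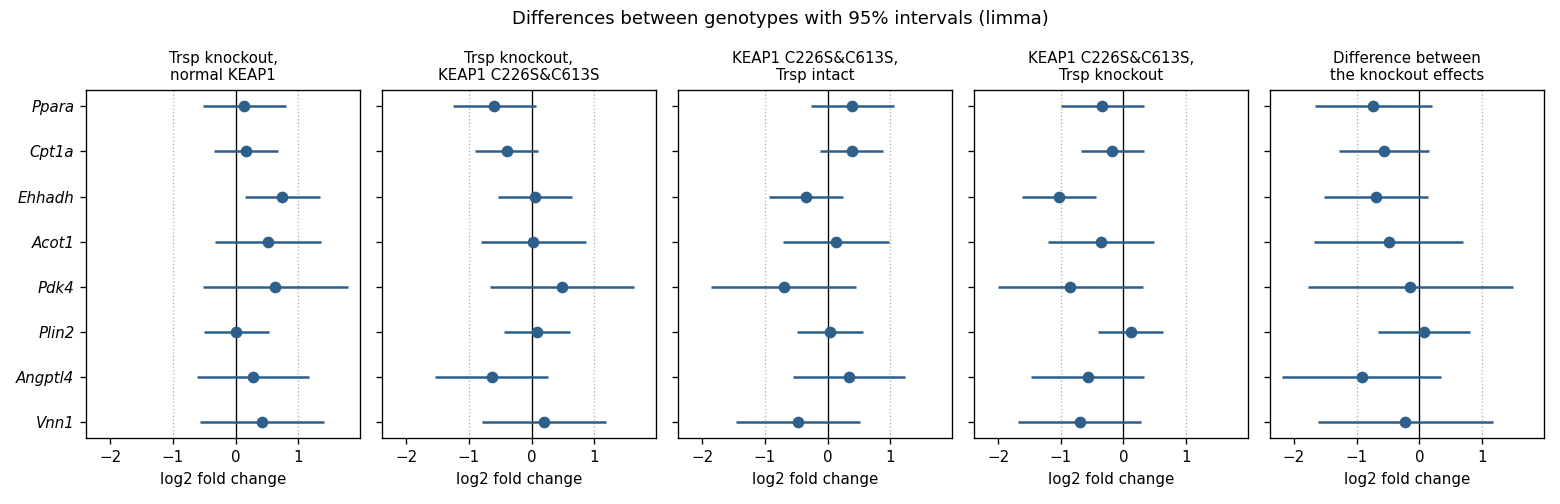
Log2 fold change (horizontal axes) of the 8 genes in the 4 comparisons and in the difference between the 2 knockout effects. Points are limma estimates, bars 95% intervals and dotted lines the fold limit of 1. The interval of Ehhadh leaves out 0 in the knockout comparison with normal KEAP1 and in the substitution comparison in knockout livers (0.75 and -1.03), and every other interval includes 0.

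The 2 knockout effects were compared directly as an interaction. No gene was called by limma or limma voom, against 0.057% of all genes, and none had an unadjusted p under 0.05, against 10.8%. The knockout effect was lower with the Keap1 substitutions in 7 of the 8 genes, with a median of -0.53 on the log2 scale against 0.00 over all genes. All 8 values come from the same libraries, so their signs are not independent of each other. The largest was Angptl4 at -0.92 (95% interval -2.19 to 0.35), followed by Ppara at -0.73 (-1.67 to 0.20), Ehhadh at -0.69 (-1.53 to 0.14) and Cpt1a at -0.56 (-1.28 to 0.16). Their limma adjusted p-values ran from 0.53 to 0.58. Without compound mutant replicate 1 these 4 interactions were -0.78, -0.56, -0.39 and -0.34, while Pdk4 went from -0.15 to -0.54, Vnn1 from -0.23 to -0.51 and Plin2 from 0.08 to 0.15. Without Trsp fl/fl replicate 3, Ppara at -0.94 (limma adjusted p = 0.49) and Cpt1a at -0.73 (limma adjusted p = 0.48) had an unadjusted p under 0.05. The share of all genes in that setting is not given here. Acot1 then went from -0.49 to -0.22, Pdk4 to -0.24, Vnn1 to -0.14 and Plin2 to 0.12. With compound mutant replicate 1 left out as well, Ppara was at -0.76 and Cpt1a at -0.52 (limma unadjusted p = 0.099 and 0.072). With all 16 libraries only Plin2 was above 0, at 0.08, and the intervals leave room for differences of more than 1 in 7 of the 8 genes.

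With Trsp intact, the Keap1 substitutions left all 8 genes uncalled by limma and limma voom, against 0.0127% of all genes, with 0 at an unadjusted p under 0.05, against 9.07%, and 0 with separate groups, against 6.23%. Pdk4 had the largest difference at -0.70 (95% interval -1.85 to 0.45). Vnn1 at -0.47 and Ehhadh at -0.34 were also below 0, while Ppara at 0.39, Cpt1a at 0.38 and Angptl4 at 0.34 were above it. Acot1 differed by 0.13 and Plin2 by 0.04. Without Trsp fl/fl replicate 3, Cpt1a was at 0.56 with an unadjusted p under 0.05 (limma adjusted p = 0.50) and Ppara at 0.60 (limma adjusted p = 0.60), while Acot1 turned to -0.14 and Plin2 to -0.01. The substitution livers were the least variable group for Ppara, at 11.51 ± 0.18 against 11.12 ± 0.68 (SD, n = 4 each), and for Angptl4, at 9.05 ± 0.34 against 8.70 ± 1.015, a difference in spread that was not tested.

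In knockout livers, the Keap1 substitutions went with lower levels of Ehhadh. Its normalized counts were 7196, 4925, 6516 and 6221 in Trsp fl/fl::AlbCre livers and 1610, 4785, 2611 and 4058 in compound mutant livers. The groups did not overlap, though the highest library of the latter, at 4785, came close to the lowest of the former, at 4925, and 8.61% of all genes had groups that did not overlap. The log2 means were 12.59 ± 0.23 and 11.56 ± 0.70 (SD, n = 4 each), a difference of -1.03 with a standard error of 0.28, a 95% interval of -1.62 to -0.44 and a limma adjusted p of 0.068, outside the call. Without compound mutant replicate 1, whose hepatocyte markers were lowest, it was -0.73 with an adjusted p of 0.17. Hepatocyte markers of compound mutant replicate 3, at 1141000 summed normalized counts, were also below every Trsp fl/fl::AlbCre library, at 1440000 to 1819000. Replicates 2 and 4 of the compound mutants, at 1490000 and 1607000, lay inside that range. The part of cell make-up in the difference was not tested.

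Across the 8 genes in this comparison, limma and limma voom called 0, against 0.57% of all genes, and none reached an adjusted p under 0.05, against 2.07%. Ehhadh alone had an unadjusted p under 0.05, 1 of 8 where 17.6% of all genes did, and the 1 was lower, as were 9.15% of all genes. Without replicate 1 of the compound mutants Pdk4 joined it, with -1.24 and an adjusted p of 0.34. In all, 7 of the 8 differences were below 0, with a median of -0.47 against 0.01 over all genes, and Plin2 at 0.11 was the exception, joined by Cpt1a at 0.04 without that library and at 0.06 with quantile normalization. Acot1, at -0.36, turned to 0.17 when summed with Acot2. Pdk4 at -0.85 (95% interval -1.999 to 0.31), Vnn1 at -0.70 (-1.69 to 0.29) and Angptl4 at -0.57 (-1.47 to 0.32) were the next largest, all with overlapping groups. Without that library Plin2 was at 0.19, Vnn1 at -0.98, Angptl4 at -0.44 and Ppara at -0.16, the last against -0.34 with it. This comparison and the first share the Trsp fl/fl::AlbCre libraries, in which Ehhadh was high, so their Ehhadh values are not separate observations. Nor are the signs of the 8 genes independent of each other, as they come from the same libraries.

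Between libraries of one genotype the 8 genes differed more than most genes did. Their pooled standard deviation within genotypes had a median of 0.55 on the log2 scale, against 0.30 over all genes tested, where the middle of the distribution ran from 0.19 to 0.45. Every one of them was above the middle gene, from the 62nd percentile for Cpt1a and the 65th for Plin2 through the 73rd for Ehhadh and the 80th for Ppara to the 88th for Acot1, the 91st for Angptl4, the 92nd for Vnn1 and the 95th for Pdk4. The highest library exceeded the lowest 2.26-fold for Plin2, 2.44-fold for Cpt1a and 2.59-fold for Ppara, and 6.77-fold for Pdk4 and 7.89-fold for Vnn1. These ratios span all 16 libraries and so include differences between genotypes.

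**Figure D3:**
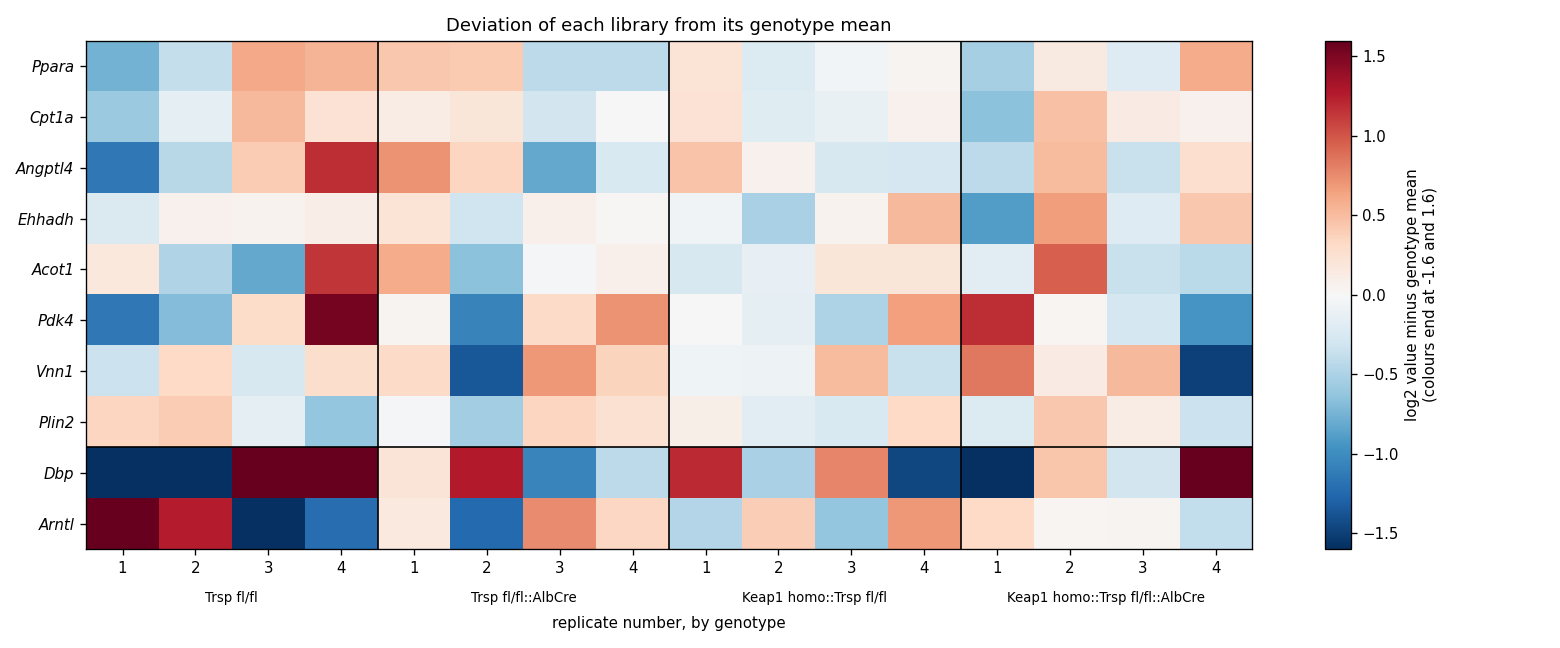
Deviation of each library (columns, by genotype and replicate number) from its genotype mean in log2 value (colour) for the 8 genes and for Dbp and Arntl. Ppara, Cpt1a and Angptl4 are low together in Trsp fl/fl replicate 1 and high together in replicates 3 and 4, and Dbp follows them while Arntl runs against them.

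Ppara, Cpt1a and Angptl4 varied together within genotypes. After the genotype mean was subtracted, Ppara and Angptl4 had a Pearson r of 0.867 over the 16 libraries (permutation p = 0.0026, adjusted 0.0485) and a Spearman rho of 0.826 (permutation p = 0.00532, adjusted 0.0497). For Ppara and Cpt1a, r was 0.801 (permutation p = 0.00425, adjusted 0.0485) and rho 0.812 (permutation p = 0.00349, adjusted 0.0497). For Cpt1a and Angptl4, r was 0.747 (permutation p = 0.0052, adjusted 0.0485) and rho 0.788 (permutation p = 0.00471, adjusted 0.0497). These were the 3 of 28 pairs with an adjusted p under 0.05, two-sided, with libraries permuted within genotype and Benjamini-Hochberg adjustment over the 28 pairs.

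The adjusted p-values stood just under the threshold and did not stay there. Without the 2 libraries farthest from the median of the first gene, r was 0.836, 0.694 and 0.679, and 0 of 28 pairs passed, the smallest adjusted p being 0.155. Without compound mutant replicate 1, r was 0.868, 0.783 and 0.795 and again 0 pairs passed, the smallest adjusted p being 0.13. With libraries scaled by their totals 0 passed, the smallest being 0.0771. When each library was left out in turn, r stayed between 0.813 and 0.896 for Ppara and Angptl4, 0.724 and 0.851 for Ppara and Cpt1a, and 0.635 and 0.795 for Cpt1a and Angptl4.

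The remaining genes did not follow this group beyond the test. Pdk4 and Vnn1 had an r of 0.553 (adjusted permutation p = 0.239) and Cpt1a and Ehhadh 0.598 (adjusted permutation p = 0.191), the latter falling to 0.322 without the 2 farthest libraries. Plin2 ran against Ppara with an r of -0.576 (adjusted permutation p = 0.256), the lowest of the 28 pairs. Over all pairs the median r was 0.188.

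**Figure D4:**
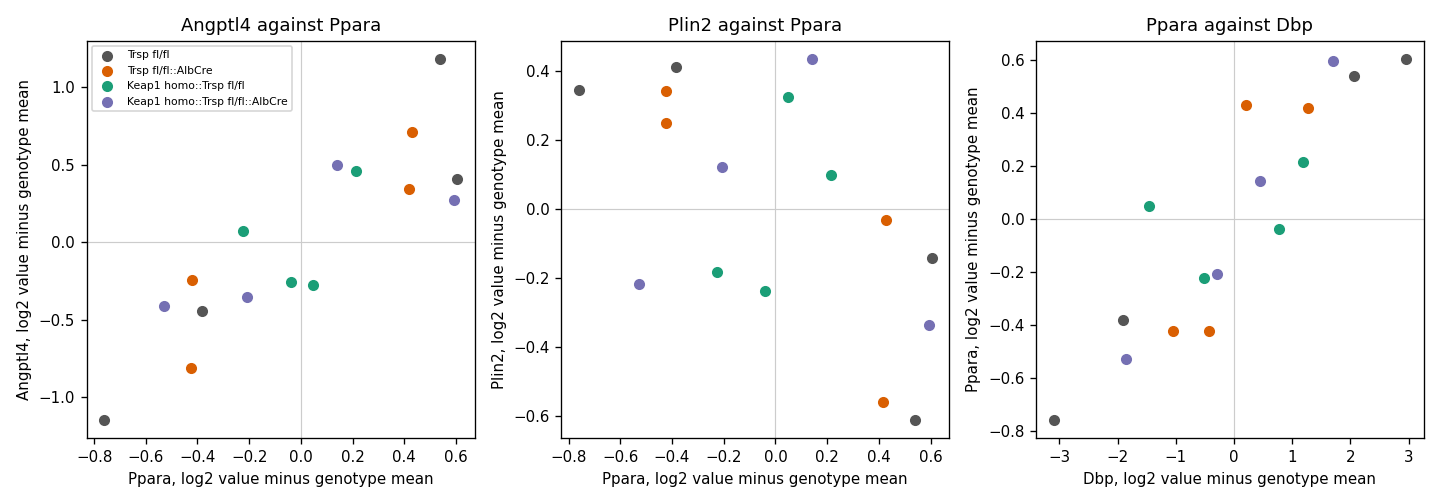
Each axis is a log2 value minus its genotype mean, for Angptl4 against Ppara (left), Plin2 against Ppara (middle) and Ppara against Dbp (right). Points are the 16 libraries, coloured by genotype. Angptl4 follows Ppara (r = 0.867), Plin2 tends to run against it (r = -0.576) and Ppara follows Dbp (r = 0.891).

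Ppara is known as a rhythmic gene in liver, and 2 clock genes were set beside the 8 after the values had been seen. The p-values of their relations, adjusted or not, do not account for that choice. Dbp, a transcription factor that binds D-boxes and is a direct target of the clock, ranged from 14.3 to 1213 normalized counts. Both extremes were Trsp fl/fl libraries, at 14.3, 37.6, 1213 and 647 in replicates 1 to 4, in which Ppara was at 1307, 1698, 3370 and 3223. Arntl, the clock's activator, was at 497, 385, 47.8 and 65.9 in those libraries. The pair low in Dbp was thus high in Arntl and low in Ppara.

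Over the 16 libraries and within genotypes, Ppara and Dbp had an r of 0.891 (permutation p = 0.00039, adjusted 0.00624) and a rho of 0.885 (permutation p = 0.00096, adjusted 0.0154). Ppara and Arntl had an r of -0.812 (permutation p = 0.00199, adjusted 0.0159) and a rho of -0.788 (permutation p = 0.00239, adjusted 0.0191). Without the 2 libraries farthest in Ppara, r was 0.838 and -0.711. Angptl4 with Dbp (r = 0.804, adjusted permutation p = 0.0239), Cpt1a with Dbp (0.796, 0.0239) and Cpt1a with Arntl (-0.682, 0.0295) also passed, and Plin2 went the other way, with an r of 0.743 to Arntl (adjusted permutation p = 0.0295). The rho of these 4 relations was 0.794, 0.776, -0.738 and 0.679 (adjusted permutation p 0.0333, 0.0333, 0.0333 and 0.0455), and r without the 2 farthest libraries 0.698, 0.681, -0.651 and 0.615. In all, 6 of 16 relations passed after adjustment over the 16. Scaling by library totals kept 6, leaving out compound mutant replicate 1 gave 5, in which Plin2 with Dbp was added and both relations of Cpt1a no longer passed although their r was 0.786 and -0.774, and leaving out the 2 farthest libraries left 1, Ppara with Dbp, at an adjusted p of 0.0438.

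Ehhadh, Acot1, Pdk4 and Vnn1 had r values to Dbp of 0.295, -0.0476, 0.102 and -0.347, none of which passed. The time of day at which livers were taken is not given in the sources used here, and its part in the spread of Ppara, Cpt1a and Angptl4 was not tested.

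Among the genes tested and outside the 8, the 2 whose genotype-centred levels were most like each gene were also listed, as a description over 16 libraries that share depth and scaling. Ppara was closest to Chdh, choline dehydrogenase (r = 0.969), and Por, the electron donor of microsomal P450 enzymes (r = 0.955). Angptl4 was closest to Acsm3, a medium-chain acyl-CoA synthetase (r = 0.954), and Plpp3 (r = 0.94). Cpt1a was closest to Pnpla7, a lysophospholipase (r = 0.939), and Epb41l4aos (r = 0.938). Ehhadh was closest to Rabggtb (r = 0.951) and to Acaa1b, a peroxisomal thiolase acting next to Ehhadh in beta-oxidation (r = 0.922). Plin2 was closest to Dctn4 (r = 0.927) and Crot, the peroxisomal carnitine octanoyltransferase (r = 0.923). The other 3 genes had looser neighbours, Vnn1 with Apold1 (0.886) and Rnf180 (0.875), Pdk4 with Adora2a (0.853) and Pf4 (0.832), and Acot1 with Spata24 (0.809) and Uck1 (0.791).

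The wider pathway was read from 13 lists holding 139 other genes, of which 134 were tested. With normal KEAP1, 0 of the 134 were called in knockout livers and 18 had an unadjusted p under 0.05, 10 higher and 8 lower, or 13.4% against 11% of all genes. The fatty acid transporter Cd36 had the smallest p of the 16 named genes plotted, at 598, 768, 1343 and 460 normalized counts in Trsp fl/fl and 2265, 736, 2177 and 1958 in Trsp fl/fl::AlbCre livers. In the knockouts, 3 libraries were above all controls, and the log2 difference was 1.16 (standard error 0.39, limma adjusted p = 0.25). Fabp1, the liver fatty acid binding protein, had a difference of -0.91 (limma adjusted p = 0.43). Ketogenesis genes had a median difference of -0.09 (2 higher and 5 lower, 0 of 7 at an unadjusted p under 0.05), and peroxisomal genes of 0.07 (11 higher and 3 lower, 1 of 14).

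**Figure D5:**
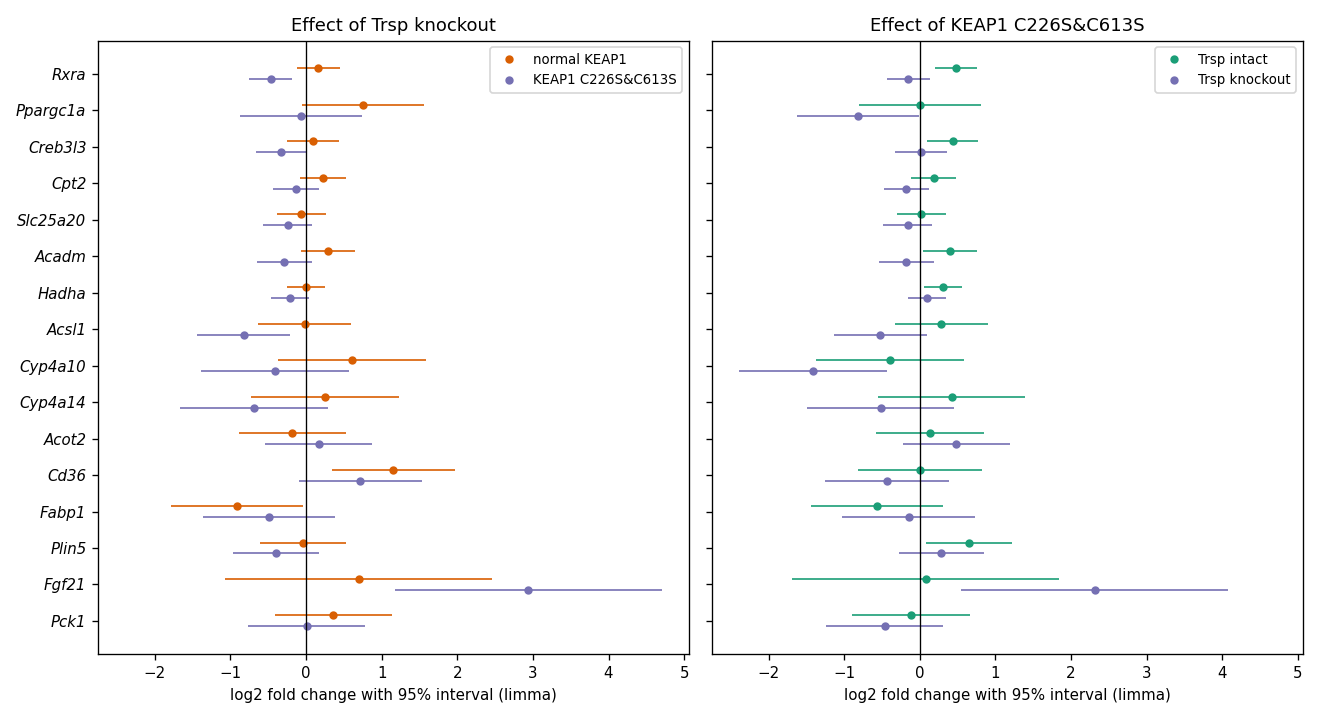
Log2 fold changes (horizontal axes) with 95% intervals for 16 named genes of PPAR-alpha signalling and fatty acid use, for the Trsp knockout (left) and the Keap1 substitutions (right), each in both backgrounds given by colour. Fgf21 has the widest interval and the highest knockout effect with the substitutions (2.94), and no gene shown reached an adjusted p under 0.05.

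With the Keap1 substitutions, 0 of the 134 were called in knockout livers, and 27 had an unadjusted p under 0.05, 4 higher and 23 lower. The lower ones were 17.2% of the lists, where 7.08% of all genes were lower by this rule. In 7 of 7 ketogenesis genes the difference was below 0, with a median of -0.32 and an unadjusted p under 0.05 in 4. Of the mitochondrial beta-oxidation genes 16 of 17 were below 0, with a median of -0.22 and 6 at an unadjusted p under 0.05.

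Hepatocyte markers were lower in the same comparison, from 826100 to 1607000 summed normalized counts in compound mutant livers against 1726000 to 2092000 in Keap1 substitution livers, with no overlap with or without replicate 1, and their part in these counts was not tested. Without compound mutant replicate 1, 14 of the 134 were lower and 5 higher at an unadjusted p under 0.05, or 10.4% lower against 5.15% of all genes. The ketogenesis genes kept 7 of 7 below 0 with a median of -0.25 and 2 at an unadjusted p under 0.05, and the mitochondrial genes 15 of 17 with a median of -0.15 and 3. Scaling by library totals raised the median of all genes in this comparison by 0.12 on the log2 scale and gave 17 lower and 11 higher of the 134, the former 12.7% against 3.85% of all genes. The mitochondrial list then had 13 of 17 genes below 0 with a median of -0.09 and 4 lower at an unadjusted p under 0.05, and ketogenesis 6 of 7 with a median of -0.19 and 2.

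Fgf21, the fasting hormone that the liver secretes, moved the other way. It had 12.2, 11.51, 4.89 and 16.2 normalized counts in Keap1 substitution livers and 181, 259, 149 and 17.0 in compound mutant livers. The groups did not overlap, but the lowest library of the deleted group was close to the highest of the intact group, and the log2 difference was 2.94 (standard error 0.83, limma adjusted p = 0.12), or 2.70 without replicate 1 of the deleted group. In livers with normal KEAP1 it was at 5.71, 10.2, 6.56 and 21.1 with Trsp intact and at 106, 30.2, 9.65 and 0.984 after deletion, a difference of 0.70.

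With Trsp intact, the Keap1 substitutions gave 13 of the 134 at an unadjusted p under 0.05, 9 higher and 4 lower, or 9.70% against 9.07% of all genes, and 0 called. All 17 mitochondrial beta-oxidation genes were above 0, with a median of 0.18 and 4 at an unadjusted p under 0.05, Acadm, Acadvl, Hadha and Hadh. Genes of a list share the same libraries, in this and the other comparisons, so their signs are not independent of each other. Erythroid markers were lower in Keap1 substitution than in Trsp fl/fl livers without overlap, at 8667 to 16990 against 21280 to 42300 summed normalized counts. Hepatocyte markers were at 1726000 to 2092000 against 1502000 to 1820000. The part of these markers in the differences was not tested. Rxra, the partner of PPAR-alpha, differed by 0.48 here (limma adjusted p = 0.25) and by -0.47 between knockout and intact livers with the substitutions (limma adjusted p = 0.12). Its interaction was -0.63 (limma adjusted p = 0.32). Without compound mutant replicate 1 the latter 2 values were -0.38 (limma adjusted p = 0.29) and -0.55 (limma adjusted p = 0.48). Over the 134 genes the interaction had 16 at an unadjusted p under 0.05, 1 higher and 15 lower, and 0 called. In both directions together this was 11.9% against 10.8% of all genes. The lower ones were 11.2% of the 134, where 835 of all 15781 genes tested were lower by this rule. They numbered 6 without compound mutant replicate 1 and 6 with library totals, settings for which the share of all genes is not given here.

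In knockout livers, the substitutions gave 36 of the 134 at an unadjusted p under 0.05, 8 higher and 28 lower, the latter 20.9% against 9.15% of all genes. Hepatocyte markers ran from 826100 to 1607000 summed normalized counts in compound mutant and from 1440000 to 1819000 in Trsp fl/fl::AlbCre livers. Compound mutant replicates 1 and 3 lay below the latter range, and the part of these markers in the differences was not tested. Peroxisomal beta-oxidation, the pathway of Ehhadh, had 10 of 14 genes below 0 with a median of -0.39, and 7 lower and 1 higher at an unadjusted p under 0.05. The omega-hydroxylase Cyp4a10 differed by -1.41 (standard error 0.46, limma adjusted p = 0.13). Cyp4a10 was at 8759, 3592, 3183 and 3776 normalized counts in Trsp fl/fl::AlbCre livers and at 694, 4003, 1926 and 1403 in the compound mutants, with replicate 2 of the latter inside the former range.

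Without replicate 1 of the compound mutants, 16 of the 134 were lower and 4 higher at an unadjusted p under 0.05 in this comparison, or 11.9% lower against 6.82% of all genes. Peroxisomal genes then had a median of -0.19 with 3 lower, and Cyp4a10 differed by -0.99. Scaling by library totals, which raised the median of all genes by 0.12, gave 16 lower and 14 higher of the 134, the former 11.9% against 5.34% of all genes.

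Of the 134 genes 1 was called anywhere, Fitm1, a protein of lipid droplet formation known mainly from muscle. It was lower with the substitutions in knockout livers, where 1 of the 134 was called against 0.57% of all genes. It had 115, 30.2, 86.8 and 76.8 normalized counts in Trsp fl/fl::AlbCre livers and 6.53, 15.9, 7.33 and 7.003 in the compound mutants, and the groups did not overlap. The log2 difference was -2.54 (standard error 0.43, limma adjusted p = 0.0052), and it was -2.45 (limma adjusted p = 0.022, not called) without replicate 1 of the compound mutants. In the Trsp fl/fl livers Fitm1 was at 38.1, 70.6, 95.6 and 21.1, the highest in replicate 3, the library with skeletal muscle markers, which does not enter this comparison's means. Fitm1 was also lower with the substitutions where Trsp was intact, a comparison that replicate 3 does enter. Its log2 means there were 5.73 ± 0.88 in Trsp fl/fl and 4.26 ± 0.41 in Keap1 substitution livers (SD, n = 4 each). The limma unadjusted p was under 0.05 and Fitm1 was not called. Over the alternatives this difference ran from -1.82 to -1.08 (limma adjusted p 0.14 to 0.68). Pdha1 and Dlat, subunits of the pyruvate dehydrogenase that Pdk4 inhibits, were lower with the substitutions in knockout livers. Their differences were -0.66 (limma adjusted p = 0.0054) and -0.51 (limma adjusted p = 0.012), under the fold limit of a call. They were picked out after their values were seen. With Fitm1 they made up the 3 of the 134 at a limma adjusted p under 0.05 in this comparison, against 2.07% of all genes.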

How the data were processed

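Liver RNA was depleted of rRNA, made into strand-specific libraries and sequenced by the authors as paired-end reads. They quantified them with Salmon against GENCODE mouse transcripts and used iDEP for differential expression. The deposited table holds log2 values per gene and library. Every column was used (0 were left out). Undoing the log2 of normalized count + 4 gave whole reads for 100% of low values (within 0.05 of a whole number, under 200 reads). The 369 rows without a gene identifier held 0.274% to 0.627% of reads and were not tested. Depth, from 11386721 to 19164140 reads, left counting error small for all but the weakest genes. No 2 libraries were identical, and replicates had correlations of 0.946 to 0.981.

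Genes reaching 10 normalized counts in 4 or more libraries were tested with limma 3.58.1 (R 4.3.3; lmFit, contrasts, eBayes with trend) on the deposited log2 values, with 1 mean per genotype, all 16 libraries and no covariate. A call took the study's thresholds. The constant of 4 makes fold changes of weak genes too small. The fit was tested on simulated data. Correlations used 100000 permutations of libraries within genotype.

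Named genes were the 8 genes, the pathway genes marked in the lists, any pathway gene called, and the 2 genes most correlated with each member. Some pathway genes are not reported here. The 8 genes and all lists were chosen with earlier results of these data known. Promoter motifs were searched in RefSeq sequence of GRCm38.p6, and shared stretches in the GENCODE transcripts of the reference, an older release than the authors'. Alternatives were constants of 1 and 16, other filters, quantile normalization, library totals, limma voom on recovered reads, no trend, only the groups compared, a block for the replicate number, leaving out each library, an adjusted p under 0.05, and Acot1 and Acot2 summed. Leaving out both libraries with adipocyte reads, the clock genes and all alternatives for the pathway lists were added after seeing the data.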

Additional observations from a re-analysis of the deposited data

Results flagged for a closer look

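Ehhadh in Trsp fl/fl replicate 1 stood apart from its group, with a log2 value of 11.61 against 11.90, 11.91 and 11.95 in the other 3 libraries. Its gap to the nearest library, divided by the range of the group, was above Dixon's 95% critical value for 4 samples. It was the single such library among 32 groups tested (8 genes in 4 genotypes), a test that chance alone passes in about 1 of 20 groups. The same library had the lowest Ppara, Cpt1a, Angptl4 and Pdk4 of the Trsp fl/fl livers, at 1307, 4045, 184 and 193 normalized counts, and the lowest Dbp of all 16, at 14.3. The knockout difference of Ehhadh with normal KEAP1 stayed between 0.67 and 0.85 when any 1 library was left out.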

How the results depend on the processing

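No member was called in any of the 144 recounts over all alternatives and comparisons, and 1077 refitted log2 differences stayed on the same side of the threshold. Of those, 47 changed sign, none with a main value beyond 0.49 in size. With the replicate number as a block, 0 members were called in each comparison and Ehhadh in knockout livers differed by -1.03 (limma adjusted p = 0.088). The number did not pair libraries: 4 of 24 same-numbered pairs across genotypes had deviations correlated above 0.1, with a median of -0.04. Without the block 90 genes, and with it 75, were called in that comparison. Over all alternatives Ehhadh ran from -1.26 to -0.73 there (limma adjusted p 0.026 to 0.21) and from 0.63 to 0.85 in knockout livers with normal KEAP1 (0.087 to 0.60). With Acot1 and Acot2 summed, the interaction of Acot1 went from -0.49 to 0.09. The 3 correlated pairs became 0 with library totals, without the 2 farthest libraries, without compound mutant replicate 1 and without it and Trsp fl/fl replicate 3, and the cause was not tested. Fitm1, the 1 pathway gene called, gave way to 0 with a filter in all 16 libraries, which drops it, with only the groups compared, with limma voom, with the block and without both libraries. With an adjusted p under 0.05 and no fold limit 3 were called, and leaving out 1 library gave 0 to 2 (0 without Trsp fl/fl::AlbCre replicate 1, 3 or 4 or compound mutant replicate 1 or 3, and 2 without compound mutant replicate 4). Depth limits weak genes such as Acot1, Fgf21 and Fitm1 most.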
